A study of Mus musculus with 48 samples.

Results

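The epithelium of the small intestine keeps bacteria away from its surface with an oxidase, with secreted antimicrobial proteins and with signals to immune cells. Duox2, the dual oxidase of the apical membrane, releases hydrogen peroxide into the lumen and needs its maturation factor Duoxa2 to leave the endoplasmic reticulum. Reg3a, Reg3b and Reg3g are C-type lectins secreted by epithelial cells, and Lyz1 (lysozyme) and Ang4 (an angiogenin-family ribonuclease) are known as products of Paneth cells at the crypt base. Nos2 is the inducible nitric oxide synthase, Ccl20 is the chemokine that attracts cells bearing the receptor Ccr6, and Nox1 is a further epithelial NADPH oxidase. These 10 genes were taken by symbol, with 1 row per gene, from the expression tables of the series, in which 15541 genes were listed in at least 1 tissue. In the intestine 9 of the 10 were listed, namely Duox2, Duoxa2, Ccl20, Nos2, Reg3a, Reg3b, Reg3g, Lyz1 and Ang4, and Nox1 was listed in none of the 6 tissues. The group was chosen by measured values, since Duox2 and Duoxa2 were put forward for their increase in the jejunum of these same libraries. The jejunal values of all members are therefore a description: differences carry a standard error but no p-value, and the count of members past the call rule is given only beside the share over all genes.

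Male C57Bl6 mice with diet-induced obesity on a high fat diet received Roux-en-Y gastric bypass (RYGB) or sham surgery, and both groups then received an elemental liquid diet, with a later return to the high fat diet, so that the diet at the time of killing is not clear from the labels. RYGB routes food from a small stomach pouch directly into the jejunum, so the duodenum no longer receives food. The mice were fasted overnight and killed at day 9. The villi of the duodenum (3 RYGB and 4 sham libraries), jejunum (3 and 4) and ileum (5 and 5) were scraped off after a short incubation in EDTA, which makes 24 of the 48 libraries of the series. Ages, the exact place of sampling along each segment and which samples came from the same mouse are not given, so the p-values measure the spread between samples. In the sampled villi, fewer cells of a type and less RNA per cell cannot be told apart.

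Values are in CPM, the reads of a gene scaled to the library total, rounded to 0.1 CPM, with no further scaling visible and an unknown depth. The listed genes summed to between 925122 and 998669 CPM per intestinal library, and the 10 most abundant genes took 12.1 to 20.4% of a library. A gene in the tables had 1 CPM or more in no fewer than 3 duodenal, 3 jejunal or 5 ileal libraries. Ileal RYGB libraries carried lane 1 in their names and ileal sham libraries lanes 2 and 3, and these lanes and the surgery groups cannot be told apart. Of the markers that define the ileum, Fabp6 (the ileal bile acid binding protein) had 41.5, 50.5, 47.4, 0.1 and 29.0 CPM in the RYGB libraries and 0, 11.2, 2.5, 22.9 and 0 CPM in the sham libraries. Fabp6 was thus at or near 0 in 3 of the ileal libraries, 1 RYGB and 2 sham. The ileal bile acid transporter Slc10a2 was higher in the RYGB group (log2 difference 2.30, limma adjusted p = 0.0474), and Onecut2, a factor of the upper intestine, was lower (-1.91, adjusted p = 0.0235). The part of this difference in segment markers in the ileal results below was not tested.

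Duox2 and Duoxa2 lie head to head on chromosome 2 of GRCm38. Duox2 is at chr2:122279247-122298449 on the minus strand and Duoxa2 at chr2:122298900-122302885 on the plus strand, with 451 bases between their annotated starts. The 250 bases before the start of Duoxa2 lie within this gap and are shown because both genes moved together across the libraries. Ccl20 (chr1:83116766-83119167, plus strand) and Reg3g (chr6:78466269-78468872, minus strand) are shown as the other measured members whose upstream window holds the NF-kB consensus. The windows are from RefSeq on GRCm38.p6, written 5′ to 3′ on the strand of the gene, and capitals mark motif matches on either strand.
Duoxa2, chr2:122298650-122298899, plus strand: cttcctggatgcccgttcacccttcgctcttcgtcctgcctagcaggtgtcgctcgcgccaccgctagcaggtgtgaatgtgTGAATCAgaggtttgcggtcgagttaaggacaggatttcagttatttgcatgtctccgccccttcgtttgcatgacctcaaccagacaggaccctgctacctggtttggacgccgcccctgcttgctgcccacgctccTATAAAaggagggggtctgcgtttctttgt
Ccl20, chr1:83116516-83116765, plus strand: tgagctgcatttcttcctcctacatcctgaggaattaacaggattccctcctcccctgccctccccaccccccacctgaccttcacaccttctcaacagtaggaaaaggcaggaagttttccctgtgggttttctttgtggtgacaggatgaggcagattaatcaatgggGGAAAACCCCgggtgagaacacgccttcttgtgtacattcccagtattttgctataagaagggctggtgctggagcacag
Reg3g, chr6:78468875-78469124, minus strand: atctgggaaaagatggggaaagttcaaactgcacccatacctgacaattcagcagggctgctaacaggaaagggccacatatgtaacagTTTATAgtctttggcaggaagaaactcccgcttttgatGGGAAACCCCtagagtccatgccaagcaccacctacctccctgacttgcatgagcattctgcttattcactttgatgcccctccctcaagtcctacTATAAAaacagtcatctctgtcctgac
In the Duoxa2 window the capitals are an AP-1 motif (TGANTCA), found as TGAATCA at 168 to 162 bases before the start, and TATAAA at 30 to 25 bases. In the Ccl20 window they are an NF-kB consensus match at 80 to 71 bases, and in the Reg3g window an NF-kB match at 123 to 114 bases with TATA matches at 161 to 156 and 27 to 22 bases. Windows of 9 members were searched, those of Duox2, Reg3a, Reg3b, Lyz1, Ang4 and Nox1 included. Nos2 was not in the table. Nox1 also held an NF-kB match (91 to 82 bases), Ang4 an AP-1 (122 to 116 bases) and a STAT match (TTCNNNGAA, 192 to 184 bases), and Reg3b a STAT match (129 to 121 bases) and a TATA match (29 to 24 bases). Duox2, Reg3a and Lyz1 held none of the 4 motifs. For Duox2, Reg3b and Nox1 the RefSeq start lies inside the gene as placed by GENCODE M21. The windows of Duox2 (chr2:122298228-122298477) and Reg3b (chr6:78370635-78370884) thus lie largely inside these genes. The Nox1 window (chrX:134111855-134112104) lies wholly inside its gene. Bases before the GENCODE starts of these genes were not searched in full. No match overlapped another. Over 32851 windows of the same length, 3.9% held the NF-kB consensus, 7.02% the STAT motif, 6.75% the AP-1 motif and 12.4% TATAAA. A match is a description of the letters and was not related to binding.

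In the jejunum, the first segment to receive food after RYGB, Duox2 had 1002.1, 1769.2 and 1862.0 CPM in the RYGB libraries and 68.2, 42.6, 25.7 and 23.8 CPM in the sham libraries. All 3 RYGB libraries lay far above all 4 sham libraries. The log2 difference was 5.31 with a standard error (SE) of 0.36, a 39.6-fold difference on the log2(CPM + 1) scale. Duoxa2 had 393.5, 677.6 and 341.3 CPM in the RYGB libraries and 11.6, 10.8, 4.5 and 5.3 CPM in the sham libraries. Here again the groups did not overlap, and the log2 difference was 5.73 (SE 0.34). Within lane 1, which held all jejunal libraries but RYGB replicate 2, the log2 difference was 5.18 for Duox2 and 5.44 for Duoxa2.

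**Figure D1:**
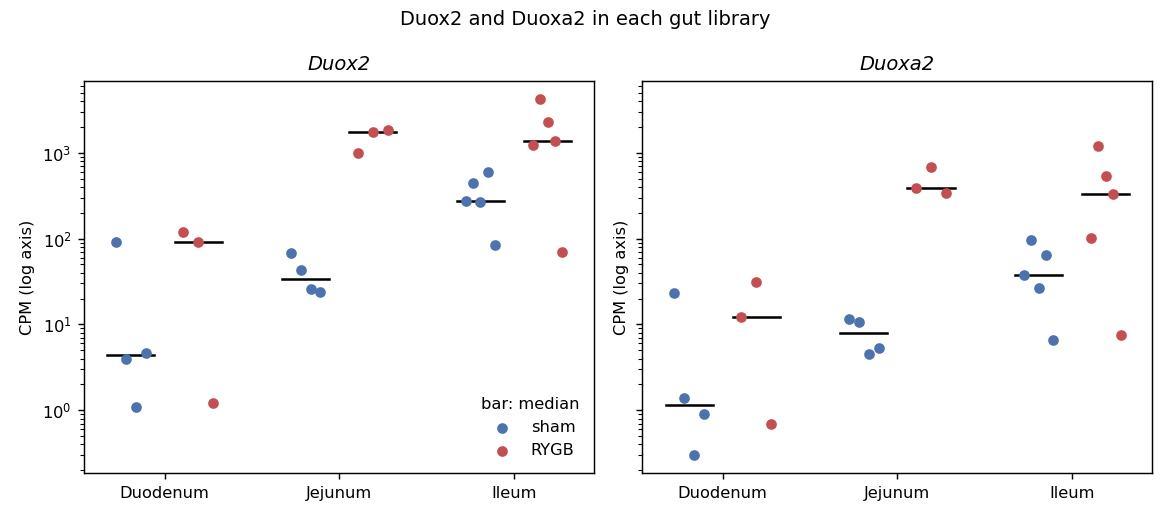
Duox2 and Duoxa2 in CPM (log axis) in each library of the 3 intestinal segments, with blue points for sham, red points for RYGB and a black bar at the group median. In the jejunum the lowest RYGB library of Duox2 (1002.1 CPM) lies above the highest sham library (68.2 CPM), whereas the groups overlap in the duodenum and ileum.

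The 2 members that signal beyond the epithelium, Ccl20 and Nos2, were far more variable among the jejunal RYGB libraries. Ccl20 had 18.3, 896.7 and 67.0 CPM in the RYGB libraries and 0.2, 10.1, 4.5 and 1.9 CPM in the sham libraries. Its groups did not overlap, but RYGB replicate 2 stood far above the other RYGB libraries. Nos2 had 45.2, 2588.6 and 381.7 CPM after RYGB and 25.5, 70.9, 6.5 and 5.2 CPM after sham surgery. RYGB replicate 1 fell between the sham libraries, so the groups overlapped, and RYGB replicate 2 was again the highest. The log2 differences were 4.79 (SE 1.13) for Ccl20 and 4.37 (SE 1.22) for Nos2, and they were 3.25 and 2.95 without RYGB replicate 2.

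Among the secreted antimicrobial proteins, the lectins Reg3b and Reg3g were abundant in both groups and higher after RYGB. Reg3b, which lies at chr6:78370657-78373466, had 14804.2, 29660.2 and 26173.4 CPM in the jejunal RYGB libraries and 5017.1, 4706.6, 11317.8 and 9465.0 CPM in the sham libraries. Reg3g had 6731.8, 9246.1 and 11518.0 CPM against 1259.4, 2462.7, 5778.3 and 2541.2 CPM. In both genes each RYGB library lay above each sham library, with log2 differences of 1.67 (SE 0.39) and 1.78 (SE 0.44). Reg3a (chr6:78380709-78383827) differed from these neighbours. It had 140.5, 140.9 and 122.9 CPM in the RYGB libraries and 127.8, 312.8, 180.9 and 285.5 CPM in the sham libraries. The groups overlapped, with most sham libraries higher (log2 difference -0.66, SE 0.29). The Reg3 genes are close paralogs, as are Lyz1 with Lyz2 and Ang4 with other angiogenins, and how the counting assigned shared reads is not given in the sources used here, so each of these values is uncertain to that extent.

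Lyz1 had 41.0, 98.0 and 44.0 CPM in the jejunum after RYGB and 6.8, 14.7, 22.7 and 11.5 CPM after sham surgery, without overlap (log2 difference 2.05, SE 0.40). Its paralog Lyz2, an enzyme of myeloid cells, was low in both groups, at 1.4 to 4.6 and 0.6 to 3.7 CPM. Ang4 was low as well, with 8.2, 1.0 and 3.2 CPM after RYGB and 0.2, 0.5, 1.7 and 0.7 CPM after sham surgery. RYGB replicate 2 of Ang4 lay among the sham libraries, and the log2 difference of 1.33 (SE 0.46) rose to 2.12 with a pseudocount of 0.1 CPM.

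Duox2, Duoxa2, Ccl20, Reg3b, Reg3g and Lyz1 (6 of 9 members) were those whose jejunal RYGB libraries all lay above the sham libraries, which held for 9.75% of all genes, and 12.5% of all genes lay below in every RYGB library (0 of 9 members). By the call rule used over all genes (adjusted p under 0.05 and at least a 1.5-fold change), 6 of 9 members were past the rule on the higher side and 0 on the lower side, where 4.62% and 5.13% of the 10854 genes tested were called. These counts restate the comparison with which the members were chosen, and nothing is read from them. The number of members past the rule was 3 without RYGB replicate 3 or without sham replicate 1, and 4 without RYGB replicate 2. It was also 4 with lane as a covariate. That fit takes RYGB replicate 2, alone in its lane, out of the difference, so it is not a separate check.

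**Figure D2:**
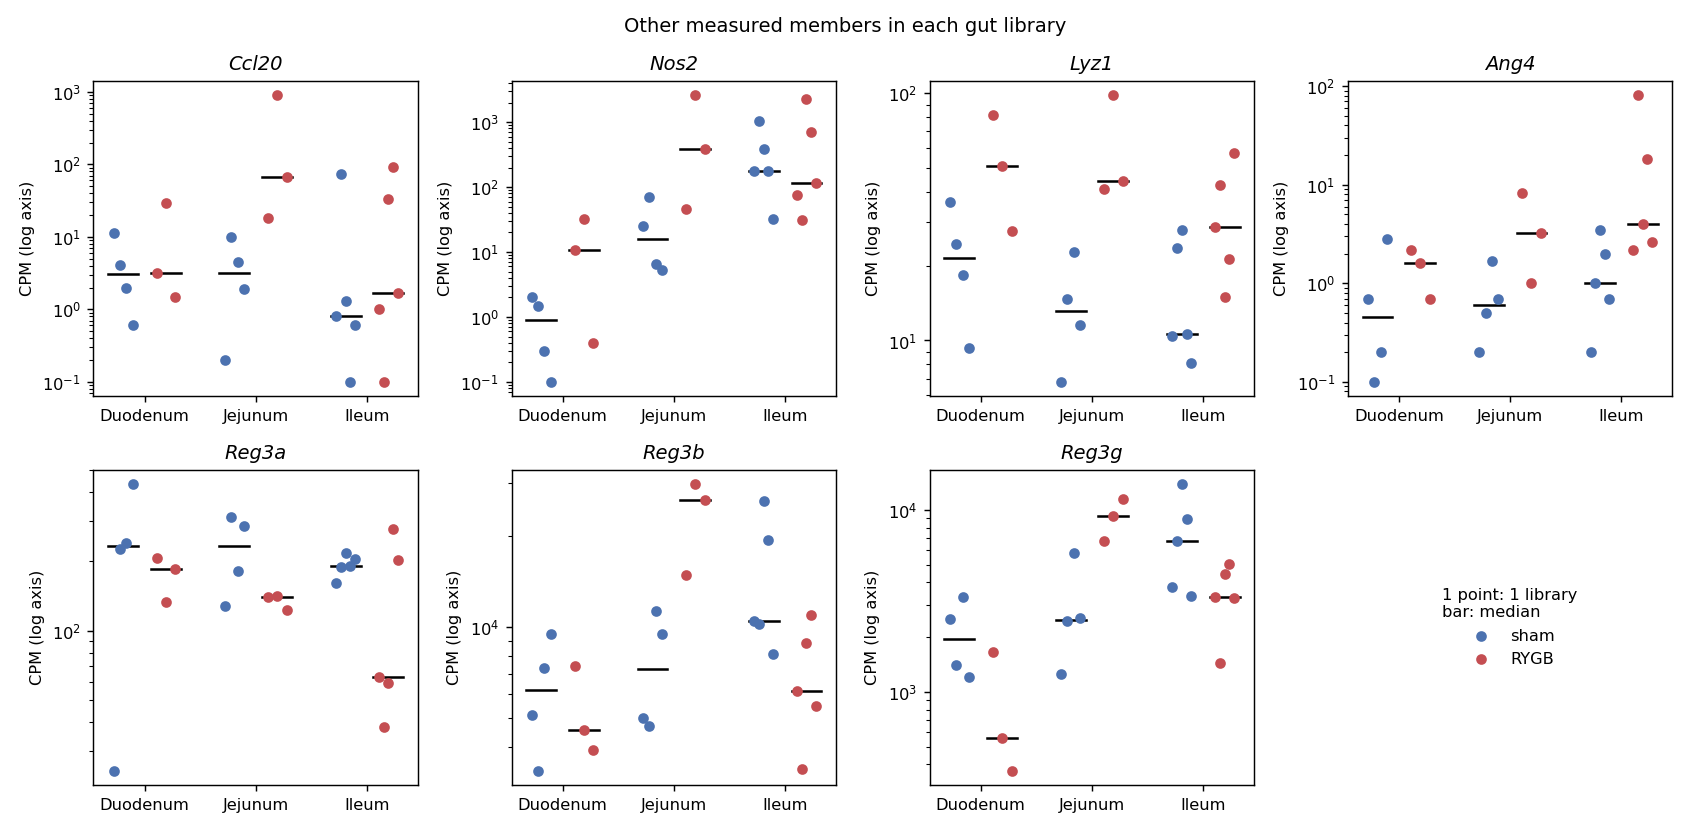
The other 7 measured members in CPM (log axes that differ between panels) in each intestinal library, with blue points for sham, red points for RYGB and a bar at the group median. Jejunal RYGB replicate 2 is the highest library for Ccl20 (896.7 CPM) and Nos2 (2588.6 CPM), and Reg3b and Reg3g lie higher after RYGB in the jejunum but not in the other segments.

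The ileum lies below the anastomosis. Duox2 and Duoxa2 were put forward for the jejunum, but the members were chosen with earlier results of these data known. The p-values of members in the ileum and duodenum may therefore not be independent of that choice. Duox2 had 1225.4, 4257.6, 2297.7, 1358.6 and 69.9 CPM in the RYGB libraries and 272.6, 443.3, 265.4, 604.1 and 84.0 CPM in the sham libraries. RYGB replicates 1 to 4 were above every sham library, and RYGB replicate 5 was below every sham library. The log2 difference was 1.89 (SE 0.92, limma adjusted p = 0.212), so the groups did not differ beyond the spread of the libraries. Without RYGB replicate 5 it was 2.85 with an adjusted p of 0.0138, and no other library left out brought Duox2 past the rule.

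Duoxa2 followed its neighbour in the ileum, with 100.9, 1188.0, 530.9, 331.3 and 7.5 CPM after RYGB and 37.5, 95.7, 26.3, 64.4 and 6.6 CPM after sham surgery. RYGB replicates 1 to 4 were again above all sham libraries, and RYGB replicate 5 was close to the lowest sham library. Its log2 difference was 2.36 (SE 1.13, limma adjusted p = 0.206), and 3.46 without RYGB replicate 5 (adjusted p = 0.0213). RYGB replicate 5 lay within the range of the other RYGB libraries in the ileal markers, with 29.0 CPM of Fabp6 and 7.1 CPM of Slc10a2. It had the highest sums of crypt markers (65.4 CPM, against 15.1 to 33.0 CPM in the other RYGB and 13.3 to 35.6 CPM in the sham libraries) and of Paneth cell markers (52.7 CPM, against 20.6 to 35.7 and 12.6 to 29.7 CPM). Their part in the ileal values of this library was not tested.

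The 3 lectins pointed the other way in the ileum, and none of them passed the rule. Reg3b had 6134.3, 3378.2, 8850.0, 10923.3 and 5457.1 CPM after RYGB and 10433.4, 10225.4, 26129.5, 19401.3 and 8110.5 CPM after sham surgery. The groups overlapped, with the highest values in sham replicates 3 and 4 (log2 difference -1.07, SE 0.38, limma adjusted p = 0.101). Reg3g had 3319.1, 1451.7, 4449.5, 5052.3 and 3286.4 CPM after RYGB and 3797.3, 6755.0, 13916.4, 8981.7 and 3363.5 CPM after sham surgery, again with overlap (-0.98, SE 0.42, adjusted p = 0.160). Reg3a had 63.2, 38.2, 59.4, 277.7 and 202.3 CPM after RYGB and 161.2, 189.2, 217.9, 191.0 and 203.9 CPM after sham surgery. RYGB replicates 4 and 5 were above or within the sham range and the other RYGB libraries below it, and the log2 difference of -0.99 (SE 0.45, adjusted p = 0.189) was -1.37 without RYGB replicate 4 (adjusted p = 0.0447).

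Of the Paneth cell products in the ileum, Lyz1 had 28.7, 42.4, 15.0, 21.3 and 57.5 CPM after RYGB and 10.4, 23.7, 27.9, 10.6 and 8.1 CPM after sham surgery. The groups overlapped, with RYGB replicates 1, 2 and 5 above every sham library (log2 difference 0.99, SE 0.39, limma adjusted p = 0.132). The highest Lyz1 was that of RYGB replicate 5, the library with the highest crypt and Paneth marker sums. Ang4 had 2.2, 80.5, 4.0, 18.2 and 2.6 CPM after RYGB and 0.2, 1.0, 3.5, 2.0 and 0.7 CPM after sham surgery. RYGB replicates 2 and 4 were far above the sham range (2.14, SE 0.78, adjusted p = 0.106).

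Nos2 and Ccl20 varied over a wide range within both ileal groups. Nos2 had 74.4, 30.9, 2303.0, 701.2 and 115.7 CPM after RYGB and 177.1, 1024.4, 390.3, 178.8 and 32.2 CPM after sham surgery (log2 difference 0.02, SE 1.13, limma adjusted p = 0.994). The groups overlapped almost wholly, and the 95% interval of the difference ran from -2.44 to 2.48. Ccl20 had 1.0, 0.1, 33.0, 91.1 and 1.7 CPM after RYGB and 0.8, 74.1, 1.3, 0.1 and 0.6 CPM after sham surgery (1.02, SE 1.37, adjusted p = 0.672). High values of Ccl20 thus came from single libraries of either group, RYGB replicates 3 and 4 and sham replicate 2. These libraries were also the highest for Nos2, at 2303.0, 701.2 and 1024.4 CPM.

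In total 0 of 9 members were called in the ileum with limma, where 6.05% of 10735 genes were called in either direction. An unadjusted p under 0.05 was found for 5 members (Reg3a, Reg3b, Reg3g, Lyz1 and Ang4) and for 2842 of all genes (26.5%). No member's groups were apart in the ileum, whereas 2.42% of all genes had every RYGB library above and 6.92% every RYGB library below the sham libraries.

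The duodenum is the segment that food bypasses after RYGB. There Duox2 had 119.6, 91.3 and 1.2 CPM after RYGB and 90.6, 4.0, 1.1 and 4.7 CPM after sham surgery. Each group held both high and low libraries. Duoxa2 showed the same libraries high, with 12.3, 30.9 and 0.7 CPM after RYGB and 23.1, 1.4, 0.3 and 0.9 CPM after sham surgery. The log2 differences were 1.75 (SE 1.62, limma adjusted p = 0.587) for Duox2 and 1.38 (SE 1.19, adjusted p = 0.562) for Duoxa2. For Duox2 the interval ran from -1.95 to 5.46, which includes 0. With 1 library left out, the difference ranged from 0.73 (without RYGB replicate 1) to 3.62 (without RYGB replicate 3) for Duox2 and from 0.46 (without RYGB replicate 2) to 2.57 (without RYGB replicate 3) for Duoxa2, and neither gene was called.

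Nos2 had 10.6, 31.8 and 0.4 CPM in the duodenal RYGB libraries and 2.0, 1.5, 0.3 and 0.1 CPM in the sham libraries. RYGB replicates 1 and 2 were above the sham range and replicate 3 within it (log2 difference 2.16, SE 0.93, limma adjusted p = 0.260). Ccl20 had 3.2, 28.9 and 1.5 CPM after RYGB and 11.3, 4.1, 2.0 and 0.6 CPM after sham surgery. Its groups overlapped (0.71, SE 0.91, adjusted p = 0.706), with RYGB replicate 2 the highest library. This library was also the highest for Nos2 and Duoxa2.

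Reg3g had 1655.1, 556.6 and 369.4 CPM in the duodenum after RYGB and 2503.5, 1403.4, 3320.3 and 1202.4 CPM after sham surgery. RYGB replicates 2 and 3 were below every sham library and replicate 1 within their range (log2 difference -1.47, SE 0.55, limma adjusted p = 0.212). Reg3b had 7440.8, 4564.4 and 3909.4 CPM after RYGB and 5116.4, 3350.4, 7292.9 and 9477.2 CPM after sham surgery, with full overlap (-0.20, SE 0.42, adjusted p = 0.830). Reg3a had 207.9, 133.8 and 186.0 CPM after RYGB and 24.7, 225.3, 239.4 and 433.4 CPM after sham surgery (0.15, SE 0.83, adjusted p = 0.945). Sham replicate 1 was the lowest library of Reg3a and, without it, the difference was -0.72.

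Lyz1 had 81.7, 50.9 and 27.6 CPM in the duodenum after RYGB and 36.2, 24.6, 18.4 and 9.3 CPM after sham surgery (log2 difference 1.25, SE 0.47, limma adjusted p = 0.215). RYGB replicates 1 and 2 were above the sham range. Ang4 had 2.2, 1.6 and 0.7 CPM after RYGB and 0.7, 0.1, 0.2 and 2.8 CPM after sham surgery, with overlap (0.50, SE 0.44, adjusted p = 0.566). With limma 0 of 9 members were called in the duodenum, as were 0.00922% of 10850 genes, that is 1 gene. At an unadjusted p under 0.05 there were 3 members (Nos2, Reg3g and Lyz1) and 2040 genes (18.8%). No member's groups were apart, whereas 12.7% of all genes had every RYGB library above and 2.93% every RYGB library below the sham libraries. The median log2 difference of all genes was 0.12 in the duodenum and 0.0048 after median ratio scaling, and no member changed its direction with this scaling.

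**Figure D3:**
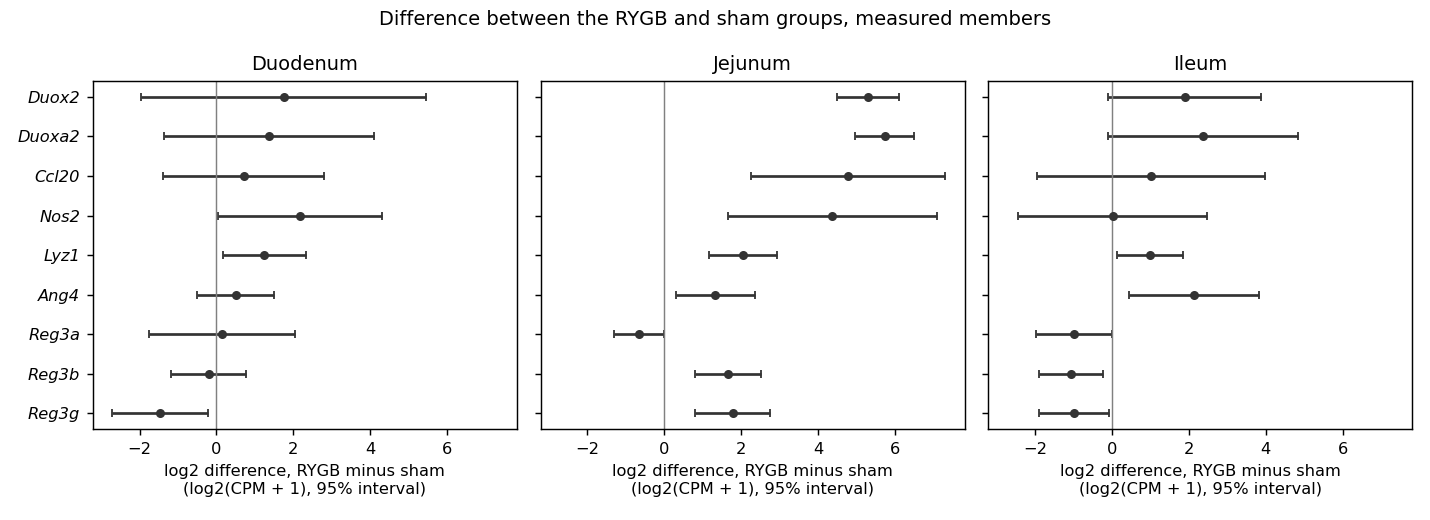
Log2 difference between RYGB and sham on the log2(CPM + 1) scale for the 9 measured members in each segment, with points for the estimate and bars for the 95% interval. In the jejunum Duox2 and Duoxa2 have the largest differences (5.31 and 5.73), and in the duodenum and ileum the intervals of both genes include 0.

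The direction of the Reg3b and Reg3g differences was higher in the jejunum and lower in the ileum, but a difference between segments was not tested. Per length, sham jejunum held 6678 ± 2875 CPM per kb of exons for Reg3b (SD, n = 4), 1424 ± 916 for Reg3g and 275 ± 106 for Reg3a, and 5.92 ± 3.04 for Duox2 and 5.06 ± 2.30 for Duoxa2. The latter pair did not differ beyond its spread, nor did either differ from Nos2 (6.13 ± 6.96). In the jejunum after RYGB, Duox2 stood at 228 ± 69.7 and Duoxa2 at 296 ± 114 CPM per kb (SD, n = 3), above the level of Lyz1 (48.3 ± 25.4). The mean of Nos2 (228 ± 313) was near that of Duox2 but came mostly from RYGB replicate 2. That library had 2588.6 CPM of Nos2, against 45.2 and 381.7 CPM in RYGB replicates 1 and 3. All measured members together took 2.32 to 4.51% of the library in the jejunum after RYGB and 0.652 to 1.73% after sham surgery, most of it Reg3b and Reg3g.

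Duox2 and Duoxa2 were high or low together in single libraries as well as between groups. Over the 24 intestinal libraries, with the sham mean of each segment subtracted from log2(CPM + 1), Pearson's r between them was 0.96, the highest of 10439 genes compared with Duox2. When each library was instead centred on its own group, r was 0.93. The ratio of Duox2 to Duoxa2 in CPM stayed between 1.71 and 12.7 in all 24 libraries, while Duox2 itself ranged from 1.1 to 4257.6 CPM. Nos2 (0.64), Lyz1 (0.62), Ccl20 (0.59), Ang4 (0.49), Reg3b (0.34) and Reg3g (0.33) came after Duoxa2 among the members, and Reg3a was negative (-0.57). Within groups the values were 0.43 for Nos2, 0.35 for Ang4, 0.29 for Ccl20, 0.19 for Reg3g, 0.19 for Lyz1, 0.09 for Reg3b and -0.60 for Reg3a. These correlations are descriptions over libraries that share a segment, a surgery and lanes.

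**Figure D4:**
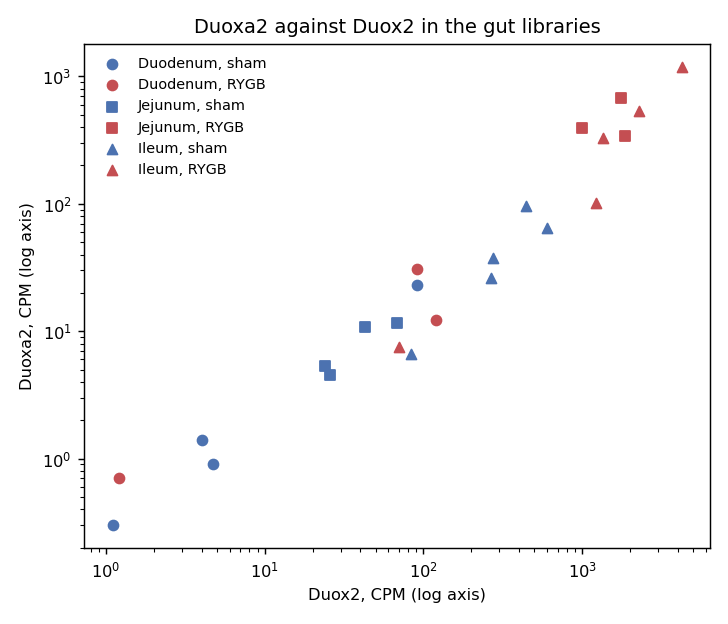
Duoxa2 against Duox2 in CPM (both axes logarithmic) in the 24 intestinal libraries, with circles for duodenum, squares for jejunum and triangles for ileum, blue for sham and red for RYGB. The points rise together over the whole range, with a ratio of Duox2 to Duoxa2 between 1.71 and 12.7. The median ratio was lower after RYGB in each segment (2.61 against 5.10 in the jejunum and 4.33 against 9.38 in the ileum), with overlapping ranges. An ileal RYGB library (69.9 and 7.5 CPM) sits beside the lowest ileal sham library.

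Apart from the members, the 5 genes most like Duox2 over these libraries were Capn5 (r = 0.88), B230216N24Rik (0.85), Galnt3 (0.83), Tuba4a (0.82) and Marcks (0.82). Galnt3 encodes an enzyme that starts O-glycosylation and Capn5 a calpain protease. Galnt3 had 81.1 to 88.0 CPM in the jejunum after RYGB and 21.4 to 32.6 CPM after sham surgery, and Capn5 33.8 to 52.2 against 6.8 to 14.3 CPM. In the ileum Galnt3 had 19.6 to 59.0 against 15.9 to 23.8 CPM (log2 difference 0.85, SE 0.27). None of the 5 genes was called in the ileum or the duodenum. The libraries of all segments were used to choose these genes, so their differences are a description only.

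Genes that act with the members were counted from lists by role. These lists and the marker lists below were chosen with earlier results of these data known. The p-values of their genes are not independent of that choice. Over all genes tested in the jejunum, 4.62% were called higher and 5.13% lower. In the ileum 6.05% of all genes were called in either direction, and in the duodenum 1 of 10850 genes. A list without a call in the duodenum, or a short list without one in the ileum, is therefore near the share over all genes. Of 13 tested oxidase and redox genes, 4 were higher and 3 lower in the jejunum after RYGB (median log2 difference 0.35, against -0.04 over all genes). The higher ones were Gpx2, the epithelial glutathione peroxidase that removes hydrogen peroxide (289.0 to 431.8 against 29.8 to 72.6 CPM; log2 difference 2.77, SE 0.29, limma adjusted p = 0.000886), and Noxo1, Noxa1 and Cyba, the organiser, activator and membrane partner of Nox1. Noxo1 had 72.4 to 124.0 CPM after RYGB and 17.8 to 25.3 CPM after sham surgery (2.07, SE 0.22, adjusted p = 0.000939). Noxa1 had 6.5 to 12.8 against 2.0 to 3.2 CPM (1.55, SE 0.25, adjusted p = 0.00553). Cat (catalase, 205.7 to 320.3 against 459.5 to 705.0 CPM), Arg2 and the phagocyte oxidase subunit Ncf1 were lower. Cyba, Cat, Arg2 and Ncf1 are named after their values were seen. Duox1 and its partner Duoxa1 were listed in none of the intestinal tables.

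Of 13 further antimicrobial genes tested in the jejunum, 4 were higher and none lower (median 0.66). Pglyrp1, which binds peptidoglycan, had 61.6 to 147.6 CPM after RYGB and 3.6 to 13.7 CPM after sham surgery (log2 difference 3.52, SE 0.39, limma adjusted p = 0.00104). The serum amyloid A genes Saa1 (14.6 to 50.9 against 1.5 to 3.9 CPM; 3.31, SE 0.40, adjusted p = 0.0016) and Saa3 (6.7 to 16.1 against 0 to 0.4 CPM; 3.45, SE 0.30) and the siderophore-binding Lcn2 (2.1 to 5.3 against 0.1 to 0.2 CPM, named after its values were seen) completed the set. Saa3 and Lcn2 reached 1 CPM in RYGB libraries only, and listed jejunal genes had 1 CPM or more in no fewer than 3 libraries. Both were thus listed only through the group in which they were high. Their place among the 4 higher genes is a description. Lypd8, a protein that keeps flagellated bacteria from the epithelium, had 887.2 to 2367.6 against 372.9 to 1167.8 CPM and did not pass (1.34, adjusted p = 0.0942). Dmbt1 had a larger difference and did not pass either (2.67, adjusted p = 0.0884). Ang (-0.72, adjusted p = 0.202), Reg4 (-0.64, adjusted p = 0.197) and Zg16 (-0.01, adjusted p = 0.99) pointed lower. In the ileum 0 of 12 and in the duodenum 0 of 10 of the antimicrobial genes were called, against 6.05% and 0.00922% of all genes.

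Among 19 genes of microbial sensing and NF-kB signalling, 4 were higher and none lower in the jejunum (median 0.71). They were the NF-kB inhibitor Nfkbia (70.7 to 387.5 against 39.2 to 68.9 CPM; log2 difference 1.91, SE 0.47, limma adjusted p = 0.0334), the subunit Nfkb2 (1.79, SE 0.36, adjusted p = 0.014), the TNF-induced Tnfaip2 (1.94, SE 0.25, adjusted p = 0.00205) and the cytokine signalling inhibitor Socs3. Socs3 is named after its values were seen. Tnfaip3 varied like Nos2 among the RYGB libraries, from 32.3 to 824.9 CPM, and did not pass (2.37, adjusted p = 0.117). Of 12 cytokines 1, Csf2, was listed in each intestinal table, and it was called in none (2.6 to 3.8 against 3.2 to 8.0 CPM in the jejunum). None of the 19 sensing genes was called in the ileum or the duodenum, where 6.05% and 0.00922% of all genes were called.

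Of 6 chemokine genes, Cxcl16 (132.9 to 210.1 against 48.6 to 61.2 CPM; log2 difference 1.53, SE 0.20, limma adjusted p = 0.00203) and Ccl28 (1.73, SE 0.46, adjusted p = 0.0422), both made by epithelium, were higher in the jejunum, and Ccl5, a product of T cells, was lower (-1.93, SE 0.38, adjusted p = 0.0127). Ccl5 was lower in the ileum too (-1.94, SE 0.39, adjusted p = 0.0145), and 0 of 6 were called in the duodenum. Ccr6, the receptor of Ccl20, was not listed. The oxidase list had 1 call in the ileum, Ncf1 (-1.15, SE 0.22, adjusted p = 0.0137), and none in the duodenum.

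**Figure D5:**
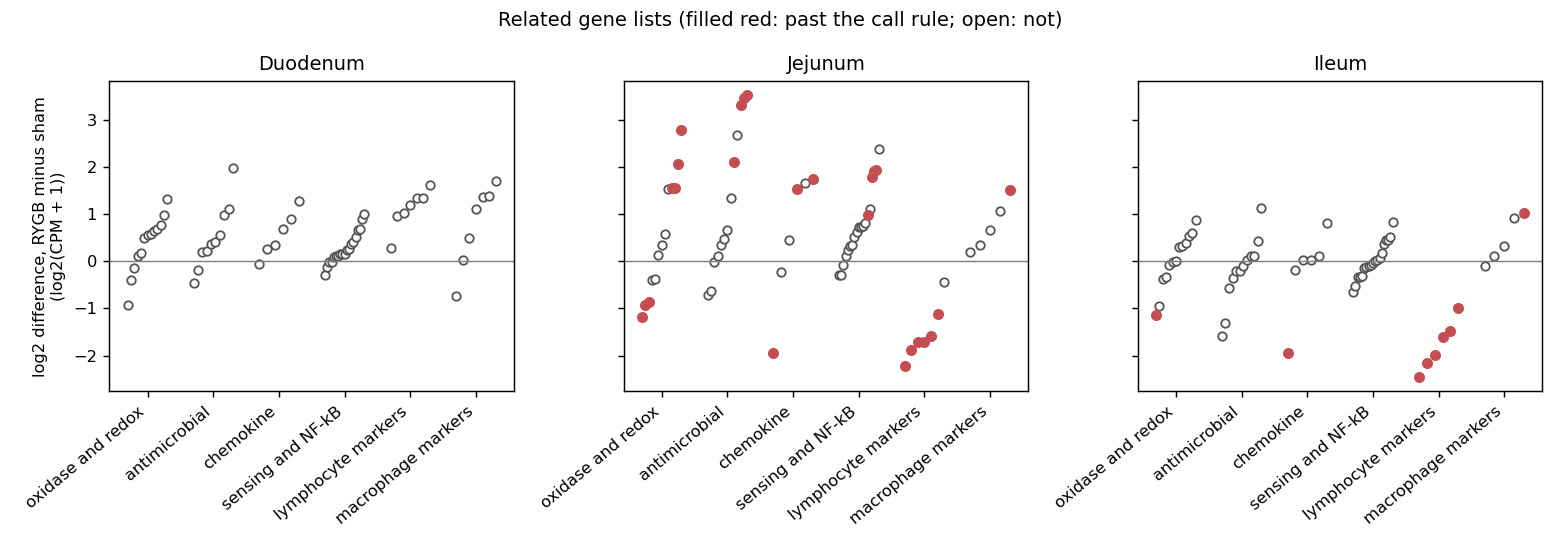
Log2 difference between RYGB and sham (log2(CPM + 1) scale) of each tested gene in 4 related lists and 2 marker lists, by segment, with filled red points for genes past the call rule and open points for the others. In the jejunum the antimicrobial and sensing lists hold 4 higher genes each, and lymphocyte markers lie below 0 in the jejunum and ileum.

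Markers of other cells were measured beside these results. The lymphocyte markers summed to 46.5 to 94.3 CPM in the jejunum after RYGB and 132 to 311 CPM after sham surgery, with 6 of 7 called lower. In the ileum they summed to 45.3 to 89.0 against 128 to 263 CPM, with 6 of 6 called lower. Over all genes tested, 5.13% in the jejunum and 474 of 10735 in the ileum were called lower. In the duodenum the sums overlapped between the groups, with 145 to 326 CPM after RYGB against 72.8 to 211 CPM for lymphocytes and 26.7 to 53.8 against 16.6 to 32.2 CPM for macrophages, and 0 of 7 genes were called in either list (median log2 differences 1.20 and 1.10). Gzma, a granzyme of intraepithelial T cells, had log2 differences of -2.22 in the jejunum (SE 0.35, limma adjusted p = 0.00482) and -2.45 in the ileum (SE 0.49, adjusted p = 0.0145). The macrophage markers summed to 47.0 to 55.9 against 21.7 to 36.0 CPM in the jejunum, where only Cd14 of 5 tested was called (10.4 to 12.6 against 2.2 to 4.7 CPM, adjusted p = 0.00492), and to 25.6 to 41.9 against 15.9 to 25.7 CPM in the ileum, with Cd14 again (1.03, SE 0.25, adjusted p = 0.0316). Of 12 neutrophil markers 1, Ltf, was listed (8.8 to 25.2 against 1.7 to 6.0 CPM in the jejunum; 1.71, SE 0.40, adjusted p = 0.026), while S100a8 was not listed. The part of these cells in the member differences, Nos2 and Lyz1 included, was not tested.

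Paneth cell markers were sparse in the scraped villi. Of 13, 2 were listed in the jejunum, Mmp7, the protease that activates Paneth cell defensins, and Itln1. Mmp7 had 13.1 to 29.6 CPM after RYGB and 0.9 to 4.5 CPM after sham surgery (log2 difference 2.41, SE 0.39, limma adjusted p = 0.00555), and Itln1 had 19.3 to 29.1 against 15.2 to 39.2 CPM (0.11, adjusted p = 0.863). In the duodenum the Paneth markers summed to 15.4 to 68.1 CPM after RYGB and 4.9 to 14.8 CPM after sham surgery, and the crypt markers to 39.3 to 135 against 24.9 to 41.0 CPM, in the segment where Lyz1 was highest in RYGB replicate 1. In that library both sums were also at their highest, and the part of crypt material in Lyz1 was not tested. Only 2 Paneth markers were listed in the duodenum, and Itln1 made up most of their sum. Itln1 had 13.9 to 64.6 against 3.2 to 10.9 CPM there and was not called (1.97, SE 0.51, adjusted p = 0.145). Duodenal Mmp7 overlapped between the groups, with 1.5 to 3.5 against 1.2 to 6.3 CPM (0.09, adjusted p = 0.934). In the jejunum the crypt markers summed to 25.7 to 57.1 against 21.9 to 34.0 CPM, with 0 of 4 called.

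The labelled tissue was checked with 12 enterocyte markers, all listed in each segment. They summed to 58151 to 91831 CPM in the jejunum after RYGB and 91558 to 123226 CPM after sham surgery, with Lct (lactase, log2 difference -1.45, SE 0.23, limma adjusted p = 0.00525) and Apoa4 (-1.47, SE 0.36, adjusted p = 0.0337) lower and Cdh1 higher (0.69, SE 0.18, adjusted p = 0.0394). Goblet cell markers had 1 call in the jejunum, Spink4 (1.42, SE 0.31, adjusted p = 0.0193). Stromal markers summed to 2.2 to 5.9 against 2.0 to 7.0 CPM there, with 0 of 2 called. In the ileum Fabp1 (1.25, SE 0.33, adjusted p = 0.0391) and Spink4 (0.75, SE 0.20, adjusted p = 0.0421) were higher, and Lct (-0.68, SE 0.16, adjusted p = 0.0261) and the stromal Vim (-0.85, SE 0.15, adjusted p = 0.0113) lower. Over all 14 lists 0 of 97 entries were called in the duodenum, where 1 of 10850 genes was called.

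Outside the intestine the liver table listed 0 of the members, and those of skeletal muscle and white adipose tissue listed only Lyz1 and Nos2. In adipose tissue Lyz1 had 34.6, 36.7, 66.5 and 48.0 CPM after RYGB and 17.6, 31.6, 9.0 and 11.4 CPM after sham surgery, and Nos2 had 12.6, 16.4, 18.6 and 7.1 against 27.2, 31.6, 27.9 and 17.6 CPM. All RYGB libraries were higher for Lyz1, though the lowest of them (34.6 CPM) was close to the highest sham library (31.6 CPM). Most RYGB libraries were lower for Nos2. The share of all genes with groups apart was not counted in adipose tissue, so nothing is read from these positions. In muscle Lyz1 had 4.5, 4.5, 2.5 and 3.1 against 2.7, 2.4, 1.8 and 4.1 CPM, and Nos2 5.4, 4.7, 6.1 and 4.6 against 4.6, 3.9, 6.2 and 3.7 CPM, so both genes overlapped between the groups. These tissues were not tested here.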

How the data were processed

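RNA was measured by mRNA sequencing (TruSeq Stranded mRNA) in 48 libraries, of which the 24 of intestinal villi were analysed here. The authors deposited 1 table per tissue, counted with HTSeq on GRCm38 per the labels. Aligner and versions are not given in the sources used here. The deposited values are CPM, a unit read from the column sums. The deposited tables of jejunum, ileum and liver were recorded as a score, because repeated lines raise the sums and because 12 liver lines miss a value. Repeated lines (298 in duodenum, 359 in jejunum, 326 in ileum) were counted once. The values do not show the depth, so no counting intervals were made, and values below 0.1 CPM are rounded.

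Each segment was fitted alone with limma 3.58.1 (empirical Bayes with a trend; R 4.3.3) on log2(CPM + 1), 2-sided, keeping genes whose mean was 1 CPM or more, with Benjamini-Hochberg adjustment over all genes tested. A call was an adjusted p under 0.05 with at least a 1.5-fold change. The fit was tested on simulated data. Positions come from GENCODE M21, upstream windows from RefSeq on GRCm38.p6. Tables were handled in pandas 2.3.3 (Python 3.11.15, numpy 2.4.6).

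The members and lists were chosen with earlier results of these data known. Named genes are the members, at most 3 called genes per list and segment with the largest absolute difference, the 5 genes most like Duox2 by Pearson's r among genes listed in all 3 segments, and markers. List genes named though not called, such as Lypd8 and Tnfaip3, fall outside this rule. Muc2 has 3 rows in the goblet list. Alternatives were a pseudocount of 0.1 CPM, no filter and a mean of at least 10 CPM, median ratio scaling, lane as a covariate (jejunum), no minimum fold change, a replicate block and leaving out each library. Protein sequences were not used here.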

Additional observations from a re-analysis of the deposited data

Results flagged for a closer look

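Ccl20 in ileal sham replicate 2 had 74.1 CPM, while the next highest ileal sham library had 1.3 CPM. On the log2(CPM + 1) scale its gap to the nearest library was 0.825 of the range of the group. It was the only one of 44 groups of 4 to 10 libraries to be set apart in this way, where chance gives about 2.2. Without this library the ileal log2 difference of Ccl20 was 2.12 in place of 1.02 (limma adjusted p = 0.286), and it was 0.45 without RYGB replicate 3 (adjusted p = 0.867) and 0.10 without RYGB replicate 4 (adjusted p = 0.972).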

How the results depend on the processing

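No member was called in the duodenum under any alternative run, and single members kept their direction in the duodenum, jejunum and ileum except as follows. In the duodenum Reg3b went from -0.20 to 0.0289 with the replicate block. Leaving out single libraries, duodenal Ccl20 ranged from -0.36 (RYGB 2 dropped) to 1.43, Reg3a from -0.72 (sham 1 dropped) to 0.64 and Reg3b from -0.47 to 0.0289 (sham 4 dropped), and ileal Nos2 from -0.84 to 0.71, negative when RYGB 3 (-0.84), RYGB 4 (-0.41), sham 5 (-0.65), sham 1 (-0.04) or sham 4 (-0.04) was dropped. Members called in the ileum numbered 0 to 2 in these fits (1 when RYGB 4 and 2 when RYGB 5 was dropped), and members past the rule in the jejunum 3 to 7 (3 when RYGB 3 or sham 1 was dropped).

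Counts over all genes moved more. The duodenum had 1 gene, 268 with the replicate block and 0 to 757 when a library was dropped: 757 for sham 4, 5 for sham 1, 2 for RYGB 1, and 0 for RYGB 2, RYGB 3, sham 2 and sham 3. The jejunum had 1058 genes, 664 among those averaging 10 CPM or more (fewer genes tested), 469 with lane in the fit and 462 to 1015 when a library was dropped: 462 for RYGB 2, 586 for sham 3 and 626 for sham 1. RYGB 2 was the only jejunal library of its lane, so lane in the fit takes it out of the group difference. The ileum had 650 genes, 333 among those averaging 10 CPM or more and 312 to 766 when a library was dropped: 312 for sham 3, 327 for RYGB 2, 385 for sham 5, 403 for sham 1 and 428 for sham 4. What else moved the counts was not tested.

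The replicate block gave 2 members in the ileum, Duoxa2 (limma adjusted p = 0.043) and Reg3b (adjusted p = 0.0397). The numbers do not pair the samples: over 11 pairs the deviations correlated at -0.28 to 0.28, with 4 over 0.1.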
